A study of Mus musculus with 6 samples.

Results

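The genes of the 4 Hox clusters were followed through RNA-seq libraries of V6.5 murine embryonic stem cells (ESCs) in which cohesin or condensin had been depleted. The members were every gene whose RefSeq accession maps to a mouse symbol made of Hox, a letter from a to d and a number. This gave 39 genes of the 21071 in the files, held in 41 RefSeq rows, and the row with the most counts was used for each gene. Of the 39 genes, 29 had at least 10 counts in at least 2 of the 6 libraries and so passed the filter on low counts.

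V6.5 is a C57BL/6-129 ESC line that was grown on irradiated mouse embryonic fibroblasts and kept for 1 passage off them before expression analysis. Lentiviral shRNA constructs targeted GFP (control), SMC1, CAPH2 or SMC2, and all 4 groups received virus and puromycin (0.5 followed by 1 µg/ml, 48 h each). There was 1 library each for GFP and SMC1. CAPH2 and SMC2 had 2 libraries each, and every library of a target is a different hairpin (CAPH2 #1 and #2, SMC2 #1 and #2). SMC1 is a subunit of cohesin, CAPH2 belongs to condensin II, and SMC2 is shared by both condensin complexes, so the 4 CAPH2 and SMC2 libraries are called condensin libraries here. The labels do not say whether libraries came from separate cultures, so spreads and p-values may be technical.

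Hox genes encode homeodomain transcription factors that give cells their position along the head-to-tail axis of the embryo. Their order along the chromosome follows the order in which they are activated in time and space, from anterior genes with low paralogue numbers to posterior genes with high ones. In undifferentiated ESCs the clusters are largely silent and covered by Polycomb complexes, and they are opened by retinoic acid, WNT and CDX signals on differentiation. Fibroblasts, the cell type of the feeder layer here, keep the Hox genes of their site of origin active.

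The target transcripts were lowered in the libraries named for them. Smc1a was at 39.9% of its GFP level in the SMC1 library, Ncaph2 (CAPH2) at 21.0% and 34.8%, and Smc2 at 70.7% and 71.9%. They also differed from GFP in the other libraries. Ncaph2 was at 67.3% in the SMC1 library and at 79.6% and 80.9% with SMC2. Smc2 was at 157% with SMC1 and at 159% and 152% with CAPH2, and Smc1a at 116% to 130% in the condensin libraries. The RPKM values, which are counts per kilobase of exon and per 1000000 reads, rest on 18823245 to 23324538 reads in each library. ESC marker genes were expressed in every library, but their summed RPKM was 3273 with GFP, 1785 with SMC1 and 2712 to 2920 in the condensin libraries, and 6 of 8 of them were lower by 2-fold or more in the SMC1 library (9.05% of all genes that passed the filter).

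Hox genes as a group were higher in the SMC1 library. Summed over all 39 genes there were 617 counts in the GFP library (28.7 counts per 1000000 reads, CPM) and 2106 in the SMC1 library (109.5 CPM). That is a 3.82-fold ratio (95% exact binomial interval 3.49 to 4.19). The condensin libraries held 34.5 to 45.5 CPM of Hox genes. Intervals of this kind cover counting error between these libraries and not the spread between cultures, and the comparison of 1 library with 1 library has no replicate check and no p-value.

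Gene by gene, a level at least 2-fold above GFP was found in the SMC1 library for 25 of the 29 Hox genes that passed the filter, against 12.6% of all 14598 genes with a ratio. No Hox gene was 2-fold lower, against 9.05% of all genes. The median log2 ratio of these Hox genes was 2.12, and that of all genes 0.018. A Hox gene that passed the filter only through a high SMC1 library had to be higher there, so all members were also counted. With a floor of 3 counts for a library at 0, 38 of the 39 genes had a ratio, 31 were at least 2-fold higher (15.1% of all genes treated in the same way) and 29 were so with an interval above 1 (12.9% of all genes). Hox genes are also weakly expressed, and among genes with a mean RPKM under 1 the 2-fold share was 37.4%, while 21 of 24 such Hox genes met it.

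**Figure D1:**
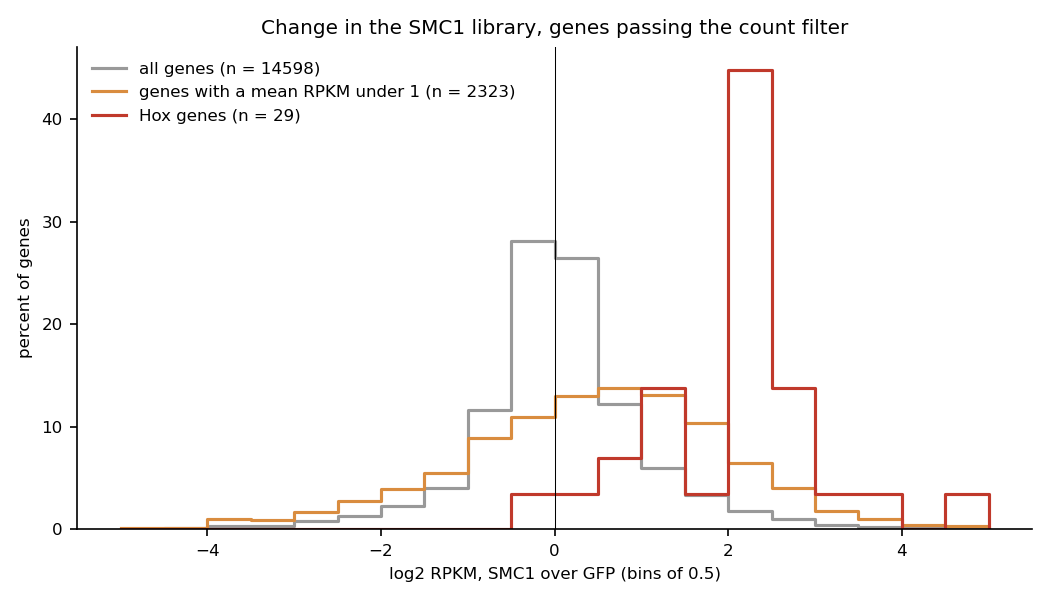
Distribution of the log2 RPKM ratio of the SMC1 library over the GFP library in bins of 0.5, as percent of genes, for all genes that passed the count filter (grey), those with a mean RPKM under 1 (orange) and the 29 Hox genes that passed (red). The fullest Hox bin, from 2 to 2.5, holds 13 Hox genes (44.8%), whereas the bins of all genes are fullest next to 0.

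Among anterior genes, Hoxb1 (chromosome 11, 96227072 to 96229567, plus strand, mm9) patterns the hindbrain and is a direct target of retinoic acid receptors. It had RPKM values of 0.515 in GFP and 2.18 in SMC1. Its condensin libraries lay at 0.702 and 0.486 (CAPH2 #1 and #2) and 0.321 and 0.448 (SMC2), on both sides of GFP. The SMC1 library stood alone, and its ratio to GFP was 4.23-fold (95% interval 2.65 to 7.03). Hoxd1, its paralogue in HoxD, differed from it, with 13 counts in GFP, 19 in SMC1 and 6 to 12 in the condensin libraries. Its SMC1 ratio of 1.64 had an interval that includes 1 (0.766 to 3.60).

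Hoxb2 and Hoxb3 are neighbours on chromosome 11 that act in hindbrain segments. For Hoxb2 (96212946 to 96215328) the RPKM was 1.14 in GFP, 5.11 in SMC1, 1.42 and 1.47 with CAPH2 and 1.53 and 1.08 with SMC2. For Hoxb3 (96184440 to 96209244) the RPKM was 0.658 in GFP, 2.76 in SMC1, 0.822 and 1.16 with CAPH2 and 0.746 and 0.809 with SMC2. Both genes had SMC1 values far above the other 5 libraries, with ratios to GFP of 4.48 (3.15 to 6.50) and 4.20 (3.04 to 5.90). Reads of another transcript could be counted in both genes, since 58.6% of the exon bases of Hoxb2 and 37.9% of those of Hoxb3 overlap the antisense gene Hoxb3os in GENCODE, and the library kit does not mark strand, so sense and antisense reads cannot be told apart.

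Hoxa2 (chromosome 6, 52112510 to 52114830), which sets the identity of neural crest in the branchial arches, had an RPKM of 0.525 in GFP, 2.10 in SMC1, 0.485 and 0.632 with CAPH2 and 0.422 and 0.758 with SMC2. Hoxa3 (52119062 to 52163066), needed for thymus and parathyroid, had 0.384 in GFP, 2.21 in SMC1, 0.692 and 0.752 with CAPH2 and 0.698 and 0.597 with SMC2. The 2 genes differed in the condensin libraries. For Hoxa2 these libraries lay around GFP, with a mean log2 ratio of 0.077 ± 0.27 for CAPH2 (SD, n = 2 hairpins) and 0.11 ± 0.60 for SMC2, while for Hoxa3 all of them lay above GFP, at 0.91 ± 0.085 and 0.75 ± 0.16. In the SMC1 library the ratios were 4.01 (2.38 to 7.06) and 5.76 (3.58 to 9.68).

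Hoxa5 (chromosome 6, 52151753 to 52154586) is a central gene that acts in the lung and the cervical skeleton. Its RPKM was 0.322 in GFP, 1.97 in SMC1, 0.731 and 0.566 with CAPH2 and 0.449 and 0.705 with SMC2, so GFP was the lowest of the 6 libraries and SMC1 the highest. The SMC1 ratio was 6.11 (3.36 to 12.0). The mean log2 ratio was 1.00 ± 0.26 with CAPH2 and 0.81 ± 0.46 with SMC2 (SD, n = 2 hairpins each), which leaves out the error of the single GFP library.

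Of the posterior genes, Hoxa10 (chromosome 6, 52181198 to 52184938), which patterns lumbar vertebrae and the uterus, showed the largest ratio of the 38 Hox genes with a ratio. It had 5 counts in GFP, 128 in SMC1, 36 and 13 with the CAPH2 hairpins and 28 with each SMC2 hairpin. The corresponding RPKM values were 0.091 in GFP, 2.60 in SMC1, 0.602 and 0.269 with CAPH2 and 0.485 and 0.535 with SMC2. The 28.5-fold ratio of SMC1 to GFP has a wide interval (12.0 to 89.8) because of the 5 counts in the denominator. Against the highest condensin library, the SMC1 value was 4.31 times as high.

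Hoxd13 (chromosome 2, 74506367 to 74509655), a regulator of digits and the urogenital tract, lies at the far end of the HoxD cluster. Its RPKM was 0.861 in GFP, 4.15 in SMC1, 1.71 and 1.07 with CAPH2 and 1.32 and 1.56 with SMC2, with GFP again the lowest library. The SMC1 ratio was 4.82 (3.48 to 6.79). Hoxb9 (chromosome 11, 96132644 to 96137907), which acts in the thoracic skeleton, changed less. Its RPKM was 0.534 in GFP, 1.23 in SMC1, 0.921 and 0.531 with CAPH2 and 0.789 and 0.617 with SMC2, and its ratio of 2.31 (1.48 to 3.67) was the lowest of the 10 genes with at least 50 counts that were higher in the SMC1 library.

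Hoxc13 was the exception among genes with at least 50 counts. This gene (chromosome 15, 102751562 to 102759245), needed for hair and nails, had the highest GFP level of all Hox genes, an RPKM of 1.95, and 1.82 with SMC1. The condensin libraries lay at 2.71 and 1.73 (CAPH2) and 1.77 and 2.01 (SMC2). The highest of the 6 libraries, CAPH2 #1, had a ratio to GFP of 1.39 (1.08 to 1.81). The SMC1 library lay among the others, with a ratio of 0.933 and an interval that includes 1 (0.691 to 1.26).

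**Figure D2:**
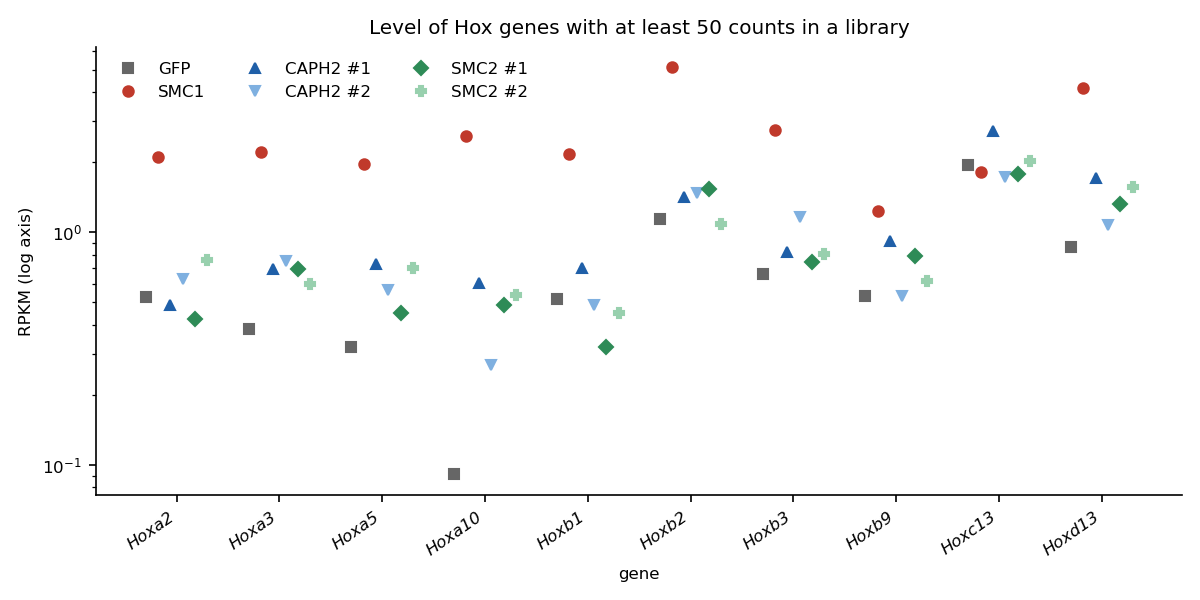
RPKM (log axis) of 10 Hox genes with at least 50 counts in a library, 1 point for each of the 6 libraries. The SMC1 point (red) is the highest at 9 of the 10 genes, and at Hoxc13 it lies among the other libraries.

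For some members the DNA just upstream of the start was at hand. RefSeq promoters (GRCm38.p6) matched 22 of the 39 Hox genes with 24 starts. The other 17 had no entry. The 250 bases before a start are given 5′ to 3′, with each CG in capitals, because CG-rich promoters are typical of Polycomb-bound genes. They belong to 1 of the 2 starts of the gene with the largest ratio (Hoxa10, minus strand) and to a posterior gene with a 4.82-fold ratio (Hoxd13, plus strand). The last belongs to a gene with 6 counts in GFP and 5 in SMC1 (Hoxd3, plus strand), whose ratio interval was 0.225 to 3.67.
Hoxa10, chr6:52234940-52235189: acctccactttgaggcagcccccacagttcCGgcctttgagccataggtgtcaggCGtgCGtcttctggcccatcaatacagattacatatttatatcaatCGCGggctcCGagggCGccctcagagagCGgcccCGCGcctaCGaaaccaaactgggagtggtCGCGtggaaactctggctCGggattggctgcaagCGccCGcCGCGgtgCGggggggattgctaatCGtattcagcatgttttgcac
Hoxd13, chr2:74667975-74668224: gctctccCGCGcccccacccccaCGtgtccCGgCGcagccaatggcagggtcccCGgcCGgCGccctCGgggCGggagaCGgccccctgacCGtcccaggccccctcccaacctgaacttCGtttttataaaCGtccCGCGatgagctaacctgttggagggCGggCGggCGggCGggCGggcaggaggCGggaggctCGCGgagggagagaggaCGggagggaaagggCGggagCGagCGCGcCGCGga
Hoxd3, chr2:74711743-74711992: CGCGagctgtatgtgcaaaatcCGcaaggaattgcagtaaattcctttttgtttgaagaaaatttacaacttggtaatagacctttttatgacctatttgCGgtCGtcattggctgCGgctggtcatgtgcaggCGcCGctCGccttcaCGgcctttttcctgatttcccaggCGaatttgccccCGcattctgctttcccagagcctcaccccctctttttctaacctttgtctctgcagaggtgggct

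These windows hold 20 (Hoxa10), 31 (Hoxd13) and 12 (Hoxd3) CG dinucleotides. Whether CG content goes with the SMC1 ratio was not tested, and these windows do not show it. Among the other windows, that of Hoxa9 had 3 CG at a ratio of 14.5, and that of Hoxd1 had 24 at 1.64. The window before the second Hoxa10 start, not shown, holds 7 and none of the letters searched for. Over the 24 Hox promoters the median was 12.5 (range 2 to 35), against 6 over all 32851 promoters of the same length, and 62.5% of Hox promoters and 37.8% of all promoters had at least 10. The letters CCAAT were found on either strand in 58.3% of Hox promoters and 33.8% of all, and are present in all 3 sequences shown. TATAAA was in 16.7% against 12.4%. The PBX-HOX letters TGATNNAT were in 16.7% against 7.68%, and TTTATNG, read by posterior HOX and CDX proteins, in 8.33% against 9.81%. TTTATNG can overlap TATAAA on the opposite strand. Such matches describe letters in this window and say nothing of binding.

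The 28 Hox genes with fewer than 50 counts in every library showed the same direction as a group. Together they had 176 counts in GFP and 559 in the SMC1 library, a 3.56-fold ratio (3.00 to 4.24), and 25 of the 27 with a ratio were higher by any amount, against 52.3% of all genes treated in the same way. The ratios of Hoxa9 (14.5, from 2 and 26 counts), Hoxd10 (10.6, from 2 and 19) and Hoxd11 (9.32, from 3 and 25) were the highest among them, with intervals of 3.64 to 126.5, 2.57 to 94.1 and 2.85 to 48.3. Hoxa9 is a regulator of blood progenitors, and Hoxd10 and Hoxd11 act in the limb. Hoxb5 and Hoxc11 had no count in GFP and 8 and 5 in the SMC1 library. With the floor of 3 counts in the GFP library, their ratios were 2.98 and 1.87. The lower limits of their 95% intervals were 1.91 and 1.03, with no upper limit because GFP had no count.

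Beside Hoxc13, the genes below GFP in the SMC1 library were Hoxc12 and Hoxd3. Hoxc12, next to Hoxc13 at the posterior end of HoxC, had 10 counts in GFP and 7 in SMC1, and Hoxd3 had 6 and 5. Hoxb13, the most posterior gene of HoxB, had 12 and 13 counts, and Hoxa6 had 1 and 2, for which no ratio is given. The ratio intervals of Hoxb13 (0.510 to 2.91), Hoxc12 (0.253 to 2.28) and Hoxd3 (0.225 to 3.67) include 1, so the direction of a change could not be told. The upper limits of Hoxb13 and Hoxc12 lie below the summed ratio of all Hox genes, 3.82 (3.49 to 4.19). That of Hoxd3 lies within the interval of the summed ratio. These intervals cover counting error only. Exons of Hoxd3 and Hoxd4 overlap on the same strand over 67.4% of the exon bases of Hoxd4, which itself had 6 counts in GFP and 25 in SMC1.

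**Figure D3:**
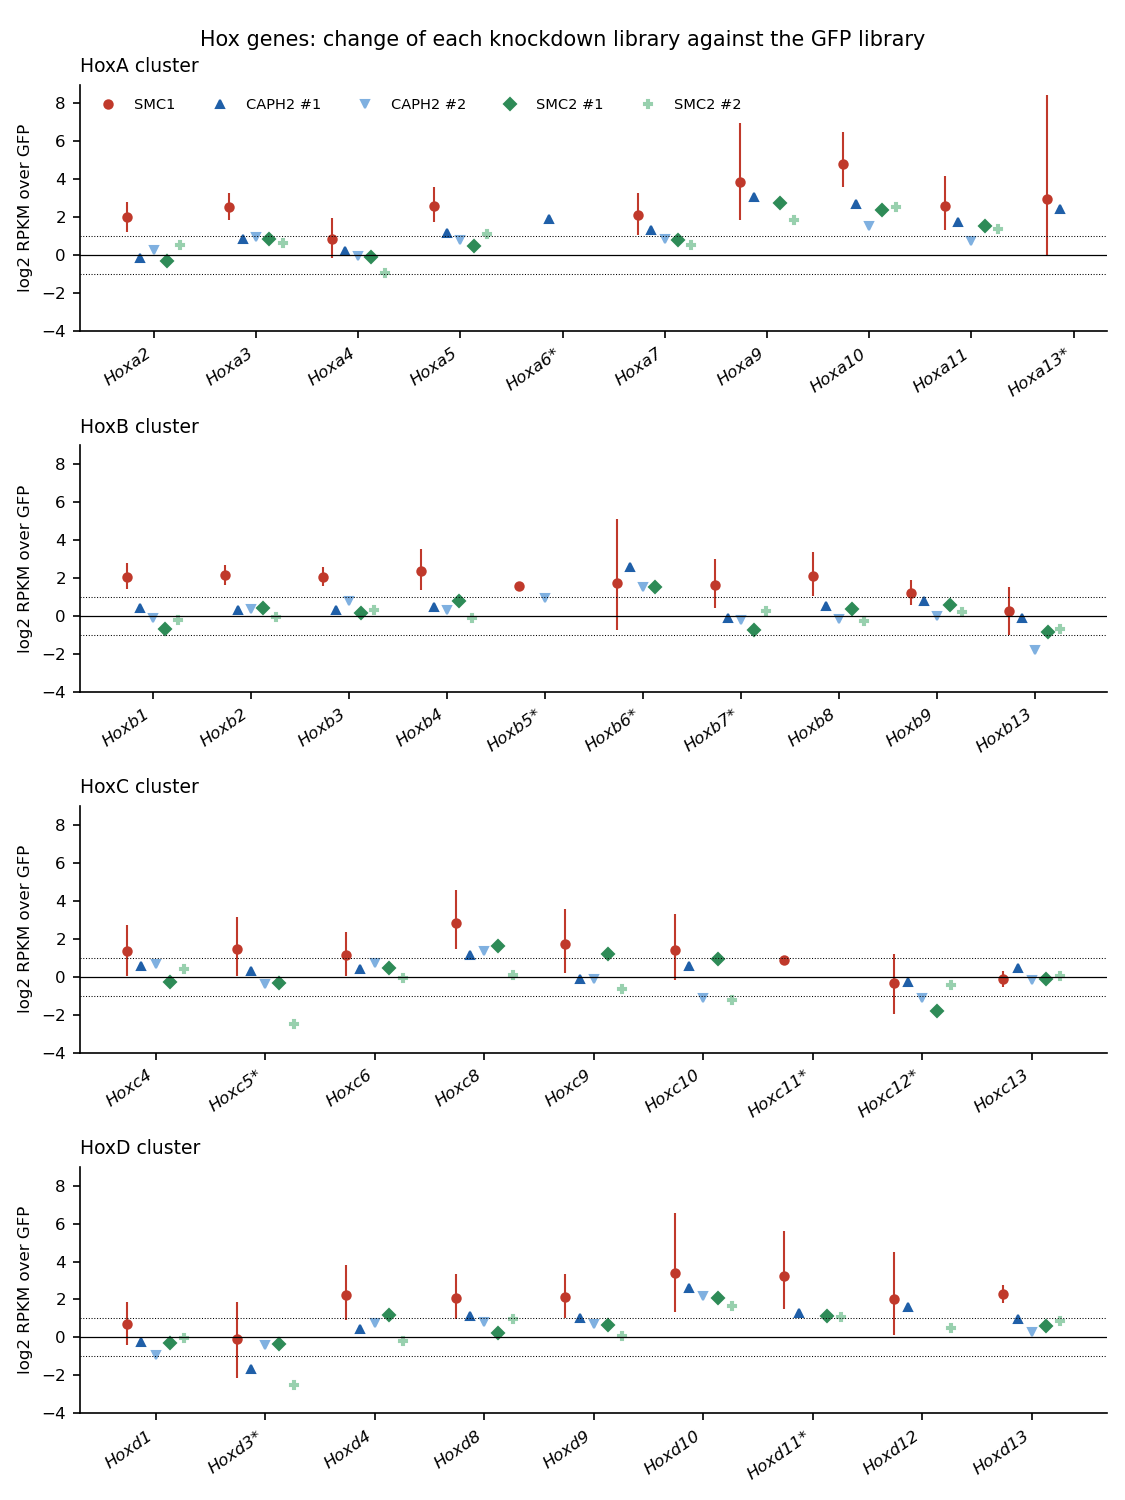
Log2 RPKM ratio over the GFP library for 38 Hox genes in paralogue order, with a panel for each cluster and a symbol for each of the 5 knockdown libraries. Lines are 95% exact binomial intervals of the SMC1 ratio (none where GFP had no count), dotted lines mark 2-fold, and an asterisk marks genes that failed the count filter. The SMC1 points (red) lie above 0 except at Hoxc12, Hoxc13 and Hoxd3, and Hoxa6 has no SMC1 ratio.

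The clusters differed in their summed counts. HoxA went from 8.60 CPM in GFP to 47.0 in SMC1 (5.46-fold, 4.66 to 6.43), HoxB from 8.50 to 32.3 (3.80-fold, 3.22 to 4.50) and HoxD from 4.51 to 19.3 (4.28-fold, 3.41 to 5.41). HoxC went from 7.06 to 10.97 (1.55-fold, 1.26 to 1.93), below the intervals of the other clusters. Hoxc13 held 102 of the 152 HoxC counts in GFP. Without Hoxc13, a choice made after its value was seen, HoxC went from 2.32 to 6.55 CPM (2.82-fold, 2.02 to 4.00), an interval that overlaps those of HoxB and HoxD. By position, the summed ratio was 4.23-fold for paralogue groups 1 to 4, 4.33-fold for groups 5 to 8 and 3.16-fold for groups 9 to 13, which include Hoxc13.

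The ratios to GFP rest on 1 library, so the SMC1 library was also set against the 4 condensin libraries directly. Its RPKM was above all 4 of them for 35 of the 39 Hox genes, against 39.7% of all genes with a count. It was above all 5 other libraries for 34 of the 39, against 37% of all genes. Among genes with a mean RPKM under 1 that passed the filter, the share above all 5 others was 50.6%. The genes that were not above all 5 were Hoxa6, Hoxb6, Hoxc12, Hoxc13 and Hoxd3. Relative to the highest condensin library, the SMC1 level of Hoxb2 was 3.35 times as high, that of Hoxb1 3.10 times and that of Hoxd13 2.43 times.

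Fewer Hox genes passed 2-fold with the CAPH2 hairpins. By any amount, 25 of 29 that passed the filter were above GFP (50.1% of all genes), beside 28 of 29 with SMC1 (51.2%). For the mean of both hairpins, 7 of the 29 Hox genes that passed the filter were at least 2-fold higher, against 2.48% of all genes, and none was 2-fold lower, against 0.945%. With CAPH2 #2 alone 3 of 27 were 2-fold higher (1.78% of all genes) and 2 were lower (1.06%), and none was 2-fold higher with its interval above 1. The median log2 ratio was 0.59 for these Hox genes and 0.00054 for all genes. Among genes with a mean RPKM under 1 the 2-fold share was 11.4%, and 7 of 24 such Hox genes met it. Of the 17 Hox genes with at least 10 counts in GFP, a subset chosen after seeing the data, only Hoxa5 and Hoxa7 were 2-fold higher, against 1.41% of all genes. With SMC1 12 of these 17 were, against 10.8%. Over all members with a ratio, none of the 12 genes of groups 1 to 4 was 2-fold higher, whereas 4 of 11 genes of groups 5 to 8 and 5 of 15 genes of groups 9 to 13 were (4.02% of all genes treated in the same way), among them Hoxa9, Hoxa10, Hoxa11 and Hoxd10. The difference by position was not tested and varied with the hairpin. With CAPH2 #1 the summed ratios were 1.31 in groups 1 to 4, 1.96 in groups 5 to 8 and 1.82 (1.56 to 2.14) in groups 9 to 13. With CAPH2 #2 the summed ratios were 1.23, 1.61 and 1.05 (0.870 to 1.26) in the same order.

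The CAPH2 hairpins did not give the same Hox levels. With CAPH2 #1 the summed Hox counts were 45.5 CPM (1.59-fold over GFP, 1.44 to 1.76), and with CAPH2 #2 34.5 CPM (1.20-fold, 1.08 to 1.34). For 28 of the 39 Hox genes CAPH2 #1 was above CAPH2 #2, against 50.1% of all genes with a count. Hoxa10 illustrates the spread, with a mean log2 ratio of 2.14 ± 0.82 (SD, n = 2 hairpins), and Hoxd10 a closer pair at 2.39 ± 0.28, both from 5 or fewer counts in GFP.

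With the SMC2 hairpins, 5 of the 29 Hox genes were at least 2-fold above GFP, against 1.73% of all genes, and none was 2-fold below, against 0.76%. The interval lay above 1 for 3 of the 5 (1.23% of all genes). By any amount, 22 of the 29 were above GFP, against 48.3% of all genes. Among genes with a mean RPKM under 1 the 2-fold share was 8.18%, and 5 of 24 such Hox genes met it. The median log2 ratio was 0.40 for these Hox genes and -0.013 for all genes. The 5 were Hoxa9, Hoxa10, Hoxa11, Hoxc8 and Hoxd10, each with 6 or fewer counts in the GFP library. None of the 17 Hox genes with at least 10 counts in GFP was 2-fold higher, against 0.773% of all genes. The summed Hox counts were 34.8 CPM with SMC2 #1 (1.21-fold, 1.09 to 1.35) and 34.6 with SMC2 #2 (1.21-fold, 1.08 to 1.35).

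In 12 of the 39 Hox genes GFP was the lowest of the 6 libraries, against 24.4% of all genes with a count. These were Hoxa3, Hoxa5, Hoxa7, Hoxa9, Hoxa10, Hoxa11, Hoxb3, Hoxc8, Hoxd8, Hoxd9, Hoxd10 and Hoxd13. All ratios share this library, so a low GFP value and a higher level in all 5 knockdown libraries cannot be told apart for these genes.

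SMC2 against CAPH2 was the only comparison with 2 libraries on each side and a test. In edgeR's quasi-likelihood test with Benjamini-Hochberg adjustment, no Hox gene passed an adjusted p of 0.05 (23 genes tested), against 0.00548% of all rows (1 of 18245). At an unadjusted p under 0.05 there were also 0 Hox genes, against 3.1% of all rows, and DESeq2 called none either. The largest difference by p was that of Hoxb1, at a log2 of -0.64 (standard error 0.35) in SMC2 relative to CAPH2 (edgeR unadjusted p = 0.101, adjusted p = 0.9995). Hoxd13 differed by 0.042 (standard error 0.25) and Hoxa10 by 0.19 (0.38). These values do not show that Hox levels were alike in the CAPH2 and SMC2 libraries.

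HOX proteins bind DNA with PBX and MEIS partners. Of 9 cofactor genes (Pbx, Meis and Pknox), 5 were at least 2-fold higher in the SMC1 library (12.6% of all genes) and 1 was lower (9.05%), and none passed 2-fold with CAPH2 or SMC2. Meis1 had an RPKM of 1.14 in GFP, 4.34 in SMC1, 1.87 and 1.55 with CAPH2 and 1.05 and 1.59 with SMC2. Meis2 had 1.80 in GFP, 6.42 in SMC1 and 2.34 to 3.18 in the condensin libraries. Pbx4 had a log2 ratio of -1.11 with SMC1.

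Regulators upstream of the clusters were measured in the same libraries. Of 20 genes of the retinoic acid and Cdx list, 7 were 2-fold higher with SMC1 (12.6% of all genes) and 2 were 2-fold lower (9.05%). Cdx2, which activates central and posterior Hox genes, had an RPKM of 0.325 in GFP, 2.59 in SMC1, 0.959 and 0.916 with CAPH2 and 0.973 and 0.708 with SMC2, so GFP was the lowest library, as for 12 Hox genes. Cyp26a1, which degrades retinoic acid, had 7.57 in GFP, 1.31 in SMC1 and 4.69 to 8.17 in the condensin libraries. Rxrg, a retinoid receptor, had a log2 ratio of 1.67 with SMC1, and Rdh10, which makes retinal, 1.14. In total 11 of the 20 were higher with SMC1 by any amount, against 51.2% of all genes. Among those below GFP were Crabp1 (-0.74), Rara (-0.69), Rarg (-0.39) and Cdx1 (-0.24). With CAPH2, 2 of the 20 were 2-fold higher (2.48% of all genes), and with SMC2 also 2 (1.73%).

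Polycomb genes, whose products repress the clusters, were called at shares near those of all genes. Of 22 genes, 3 were 2-fold higher in the SMC1 library (12.6% of all genes) and 2 were 2-fold lower (9.05%), with a median log2 of -0.055. Bmi1 was 1.72 higher and Cbx8 1.07 on the log2 scale, and Phf19 was at -1.10. The core subunit gene Ezh2 was at -0.14, Eed at -0.51 and Suz12 at -0.34. None of the 10 genes of the Trithorax and demethylase list, which act against Polycomb, passed 2-fold, and the largest ratio was that of Kmt2a, at 0.86. No Polycomb or Trithorax gene passed 2-fold with the condensin knockdowns.

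Genes that flank the clusters were measured as well. Of 31 listed neighbours and noncoding genes, 24 had a row and 16 passed the filter, with a median log2 of -0.20 in the SMC1 library, 2 genes 2-fold higher (12.6% of all genes) and 3 lower (9.05%). Evx1, a homeobox gene at the end of HoxA, had 38 counts in GFP, 125 in SMC1 and 34 to 70 in the condensin libraries, and Jazf1 had a log2 ratio of 1.51. Calcoco2 and Ttll6, near HoxB, were lower at -2.78 and -2.64. Skap2 beside HoxA (-0.23), Cbx1 beside HoxB (-0.20) and Mtx2 beside HoxD (-0.0010) differed little from GFP.

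Markers of feeder fibroblasts were counted too. All 12 listed markers had a row and 10 passed the filter. Of these, 5 were 2-fold higher in the SMC1 library (12.6% of all genes) and none lower (9.05%), with a median log2 of 1.03, and 1 was 2-fold higher with CAPH2 (2.48%). The summed RPKM of the list was 264 in GFP, 400 in SMC1, 394 and 312 with CAPH2 and 302 and 272 with SMC2. Vim, an intermediate filament gene, made up most of each sum, with 215 in GFP, 296 in SMC1, 316 and 258 with CAPH2 and 241 and 217 with SMC2. The other 11 markers, a set made after seeing the values, summed to 49.4 in GFP, 103.6 in SMC1, 78.3 and 54.1 with CAPH2 and 61.0 and 54.7 with SMC2, which puts the SMC1 library highest.

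Single fibroblast markers spanned a wide range. Dcn and Lum were near 0 in GFP with 1 count each, and Dcn had 19 and Lum 5 counts in SMC1, 5 to 7 and 0 to 1 in the condensin libraries. Fbn1 had a log2 ratio of 2.19 with SMC1, Prrx1 1.84, Col1a2 1.43 and Col3a1 1.15. Thy1 had the lowest SMC1 ratio of the list, a log2 of 0.25, and was below GFP in all 4 condensin libraries (-0.28 to -0.67). In bulk RNA a larger number of cells of a type and more RNA per cell cannot be told apart, and the part of the fibroblast markers in the Hox result was not tested.

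**Figure D4:**
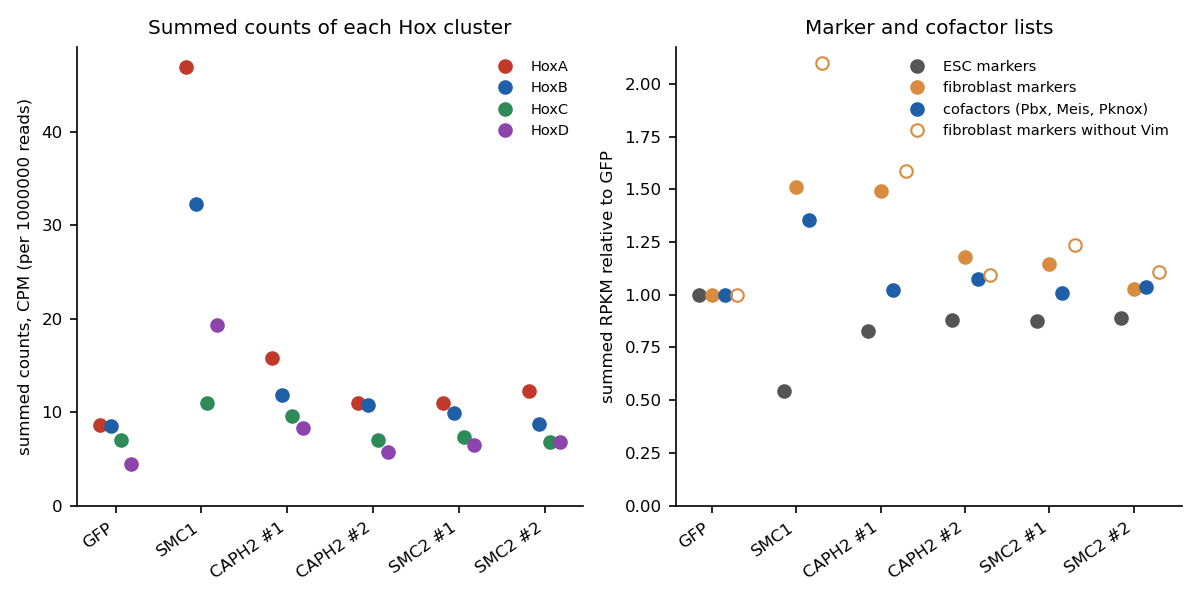
Left, counts summed over the genes of each Hox cluster per 1000000 reads (CPM) in each of the 6 libraries. Right, RPKM summed over the ESC marker, fibroblast marker and cofactor lists in each library, divided by the GFP library. HoxA reaches 47.0 CPM in the SMC1 library, and the fibroblast list, most of which is Vim, is highest in the SMC1 and CAPH2 #1 libraries. Open circles are the same list without Vim, at 2.10 in SMC1 and 1.59 in CAPH2 #1.

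Reads of related genes could be assigned to the wrong member where sequences are identical. Among 569 pairs of coding sequences from different clusters (GENCODE transcripts, NCBI build 37), the longest shared stretch had a median of 14 bases and reached 52 bases for Hoxa6 and Hoxb4, and 4 pairs shared at least 40 bases. Hoxb3 and Hoxd3, whose SMC1 ratios were 4.20 and 0.938, are among these 4 pairs, with 47 bases. Within the span of the row used for each gene, 14 of the 39 Hox genes share GENCODE exon bases with another gene. Of these, 7 share them with an antisense gene and 8 with a gene on the same strand. The other 25, including Hoxa5, Hoxa10, Hoxb1, Hoxb9 and Hoxd13, share none within that span. Hoxb7 is counted among the 25, although GENCODE exons of Hoxb7 outside its span overlap Hoxb8.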

How the data were processed

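The authors aligned reads to mm9 with Bowtie (-e 70 -k 1 -m 2 -n 2), so reads matching more than 2 places were lost, and deposited raw exonic read counts per RefSeq row. The deposited RPKM values are counts scaled by the authors to exon length and library reads. Libraries came from polyA-selected TruSeq RNA, without strand. Each file holds 26073 RefSeq rows and 92 ERCC rows; 25353 rows were named by accession and 698 by overlap with GENCODE.

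Ratios used RPKM with no pseudocount, a 2-fold rule, a floor of 3 counts and 95% exact binomial intervals, which cover counting error only. For SMC2 against CAPH2, edgeR 4.0.16 (quasi-likelihood test after TMM scaling) was run on the rows that reached 10 counts in 2 or more libraries, with DESeq2 1.42.0 as the alternative. On simulated data (18129 rows, 100 changed 2-fold and 100 changed 4-fold) the edgeR step recovered all 200, with 10 false calls among 210. The changed rows all had an expected count of at least 50, and every row was given the same spread. Since 28 of the 39 Hox genes reached 50 counts in no library, the simulation does not show what the test could find for them. Hox genes were named at 50 counts or more in a library, and list genes as up to 4 with the largest SMC1 ratio. Some of these are not reported here. Others named in the text were chosen after their values were seen. Members and lists were chosen with earlier results of these data known. Alternatives were TMM, DESeq2 and ERCC scaling, other filters, pseudocounts, rows and hairpins left out. Same-numbered hairpins are different constructs, so the number pairs nothing by design. Labels call CAPH2 #1 number 3.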

Additional observations from a re-analysis of the deposited data

Results flagged for a closer look

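Hoxb13 and Hoxd1 were the Hox genes that lay above GFP in the SMC1 library and below GFP in all 4 condensin libraries. For Hoxb13, the most posterior HoxB gene, the log2 ratio was 0.28 with SMC1, -0.12 and -1.81 with the CAPH2 hairpins and -0.84 and -0.70 with the SMC2 hairpins. It rests on 12 counts in GFP and 3 to 13 in the other libraries. For Hoxd1, the anterior end of HoxD, the log2 ratio was 0.71 with SMC1, -0.23 and -0.92 with CAPH2 and -0.31 and -0.036 with SMC2, from 13 counts in GFP and 6 to 19 elsewhere. The difference between the knockdowns was not tested, the SMC1 group is 1 library, and all these ratios share the single GFP library.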

How the results depend on the processing

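Hox levels were low, so counting error limits most single genes, and the SMC1 comparison has no replicate. The number of Hox genes with SMC1 above all condensin libraries (35) ranged from 35 to 38 under 7 alternatives, and that above all others (34) from 34 to 36. No Hox gene was 2-fold lower with SMC1 under any of 9 alternatives. Against GFP, TMM and DESeq2 scaling moved none of the counts of Hox genes or their medians past the limits set. ERCC scaling shifts the log2 ratios of all genes by 0.86 (SMC1), 0.63 and -0.047 (CAPH2), and 0.64 and 0.57 (SMC2). It gave Hox medians of 2.99 (SMC1), 0.88 (CAPH2) and 1.00 (SMC2), with 28 genes 2-fold higher for SMC1, 12 (11 with the interval above 1) for CAPH2 and 15 (11) for SMC2, beside medians of 0.88, 0.34 and 0.59 and shares of 42.7%, 6.19% and 11.6% over all genes.

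Only 3 Hox genes had an RPKM of at least 1 in GFP. Of these, 2 were 2-fold higher with SMC1 (6.49% of all genes), both with the interval above 1, and 0 with CAPH2 or SMC2, whose medians were 0.25 and -0.042. With at least 10 counts in GFP, an alternative chosen after seeing the data, 12 of 17 genes were 2-fold higher with SMC1, all 12 with the interval above 1 (10.8% of all genes), 2 with CAPH2 (median 0.34) and 0 with SMC2. Both filters test fewer genes. A pseudocount of 0.1 gave 22 genes (10.9% of all genes) and a median of 1.77 for SMC1, 3 genes 2-fold higher (3 with the interval above 1, 1.11% of all genes) and a median of 0.41 for CAPH2, and 2 genes (0.541%) for SMC2. A pseudocount of 1, above the RPKM of most Hox genes, gave 9 genes (9 with the interval above 1, 4.66% of all genes) and a median of 0.63 for SMC1, and 0 genes with medians of 0.17 for CAPH2 and 0.077 for SMC2. With no filter beyond 1 count, 2 of 35 Hox genes with a ratio were 2-fold lower with SMC2 (1.79% of all genes) and 6 were 2-fold higher (3.32%). Leaving out CAPH2 #1 leaves CAPH2 #2 alone, for which the counts and the shares of all genes are given above. Leaving out a CAPH2 hairpin gave medians of 0.36 to 0.57. Counts with another hairpin left out are not reported here. The cause of these moves was not tested.

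In SMC2 against CAPH2, no alternative called a Hox gene. The number of rows called (1 in edgeR) was 15 with the replicate number as a block, 3 with DESeq2 size factors in edgeR, 8 with no filter, 2 with a single row per gene, 5 in DESeq2, and 1 to 404 with a hairpin left out (404 without CAPH2 #2, 29 without CAPH2 #1 and 3 without SMC2 #1), where the lone hairpin is assumed to vary like the others. Deviations of same-numbered hairpins correlated at 0.0488 with 2 pairs, so the block stands on a shared number only. With a hairpin left out, the log2 difference ranged from -0.23 to 0.92 for Hoxa10, -0.37 to 0.46 for Hoxa2, -0.53 to 0.12 for Hoxa5, -0.40 to 0.092 for Hoxb2, -0.37 to 0.41 for Hoxb9, -0.51 to 0.13 for Hoxc13 and -0.24 to 0.43 for Hoxd13, so none of these directions is stable.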

Other observations

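In the SMC1 library 12.6% of all genes were 2-fold higher and 9.05% lower. The neural and mesoderm marker lists held genes past 2-fold in both directions there, and the endoderm list did not. Among 5 neural markers that passed the filter, 3 were at least 2-fold higher than in GFP and 1 was lower. Zic1, a neural regulator, went from 19 counts in GFP to 130 in SMC1, with 13 to 29 in the condensin libraries, while Olig2 had a log2 ratio of -1.53. Of 6 endoderm markers, 3 were 2-fold higher and none lower, Dab2 among them at 1.44. Of 5 mesoderm markers, 1 was higher and 2 were lower, with T (brachyury) at 1.25 and Mesp1 going from 66 counts in GFP to 3. With CAPH2, 2 endoderm markers and 1 mesoderm marker were 2-fold higher (2.48% of all genes), and none with SMC2. ESC markers were led by Esrrb (-3.29) and Klf4 (-3.09) in the SMC1 library.

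The Hox clusters also hold microRNA precursors. Mir196a-1, which lies in HoxB, had 12 counts in GFP, 4 in SMC1, 16 and 8 with CAPH2 and 12 and 11 with SMC2. Its SMC1 ratio of 0.373 has an interval that includes 1 (0.0877 to 1.23). Mir10a, Mir10b, Mir196a-2, Mir196b and Mir615 were at 0 in all 6 libraries, which for a polyA-selected library does not measure the mature microRNA. The mature 5p products of the miR-196 genes share a seed (capitals, bases 2 to 8) and are known to target Hox transcripts (RefSeq, GRCm38.p6).
mmu-miR-196a-5p: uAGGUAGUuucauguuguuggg
mmu-miR-196b-5p: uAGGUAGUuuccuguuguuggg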
